A study of Bos taurus with 12 samples.

Results

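The Z-disc and giant sarcomere proteins hold the contractile filaments of striated muscle in register. The genes followed here were ACTN2, ACTN3, MYOZ1, MYOT, LDB3, TCAP, TTN, NEB and ACTA1, chosen by symbol, and every probe set whose annotation gave exactly 1 of these symbols was taken. That gave 14 probe sets for 8 of the 9 genes, out of 24128 probe sets and 9155 named genes on the array. TTN, the gene of the giant spring protein titin, was not analysed here. Of the 14 probe sets, 9 were tested, 3 were manufacturer's control probe sets of ACTA1, and 2 of NEB were too dim for the test.

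Affymetrix bovine arrays were used to measure expression in 2 fat depots of steers of the Japanese Black (JB) beef breed and the Holstein (HS) dairy breed, all on energy-rich feeding. The 4 groups were JB intramuscular fat (IMF), HS IMF, JB subcutaneous fat (SCF) and HS SCF, with 3 samples each. IMF samples carry the numbers 1, 2 and 3, and SCF samples 4, 5 and 6. The labels call the intramuscular material isolated fat, and state no age and no genotype beyond the breed. They do not say that samples of a group are separate animals, so the p-values speak only of how these samples vary, and that variation may be technical. Nor do they say whether IMF and SCF samples came from the same steers, and the fit treated the depots as unpaired.

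In a striated muscle fibre the Z-disc is the boundary between neighbouring sarcomeres. Thin actin filaments from both sides are anchored there and crosslinked by alpha-actinin, and a shell of small adaptor proteins binds alpha-actinin and joins the Z-disc to signalling proteins and to the fibre membrane. Nebulin runs along the thin filament, and titin spans the sarcomere from the Z-disc to its middle. These proteins are known chiefly from striated muscle fibres.

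The IMF samples held muscle fibre RNA by their markers. The summed signal of 24 skeletal muscle fibre genes was 129579 to 191775 in JB IMF and 84725 to 172142 in HS IMF, against 16664.7 to 25727.8 in JB SCF and 12304.5 to 32079.7 in HS SCF. Of these 24 genes, TNNT1, slow skeletal troponin T, was at 0 in JB SCF 5. It gave 181 in JB SCF 6 and 131 in HS SCF 5. Every IMF sample lay above every SCF sample for 19 of the 24. The other 5, MYH7, MYL11, TPM1, TPM3 and CKM, overlapped between depots. Their SCF signals ran from 520 for MYL11 up to 9118 for TPM1, so these genes weigh on the SCF sums. The summed signal of 10 adipocyte genes was 28241.3 to 64794 in JB IMF and 37552.5 to 47207.8 in HS IMF, against 67240.2 to 74785.6 in JB SCF and 62632.8 to 87298.7 in HS SCF. FABP4, a fatty acid binding protein of adipocytes, was bright throughout (IMF 11590.8 to 15284.6, SCF 15399.9 to 17308.5). Its depot difference was the smallest of the 10, at −0.20 on the log2 scale. The list median was −0.85, and 1 of the 10 passed as lower in IMF by limma, SCD at −0.87 (adjusted p = 0.0213). Of all 16811 tested probe sets, 1064 were lower in IMF over both breeds by limma at an adjusted p below 0.05. Macrophage genes moved opposite to the fibre genes, with 6 of 6 tested lower in IMF and a median difference of −2.47 on the log2 scale. Their summed signal was 1252.88 to 3988.79 in JB IMF and 1370.97 to 1723.92 in HS IMF, against 10993.2 to 24554.8 in JB SCF and 7032.84 to 12539.4 in HS SCF. The part of muscle fibres, adipocytes or macrophages in each result below was not tested, and in such bulk samples fewer cells of a type and less RNA per cell cannot be told apart.

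Between depots, all 8 measured genes were higher in IMF than in SCF over both breeds. By limma with Benjamini-Hochberg adjustment over 16811 probe sets, 9 of 9 tested probe sets passed at an adjusted p below 0.05, where 4.66% of all tested probe sets passed in this direction and 11% in either. The median difference of the members was 6.64 on the scale of log2(signal + 16), against −0.06 over all tested probe sets. Every IMF sample lay above every SCF sample for each of the 9, which 3.11% of all tested probe sets showed in normalized values. The 8 genes are shown sample by sample in the plot of signals by group.

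**Figure D1:**
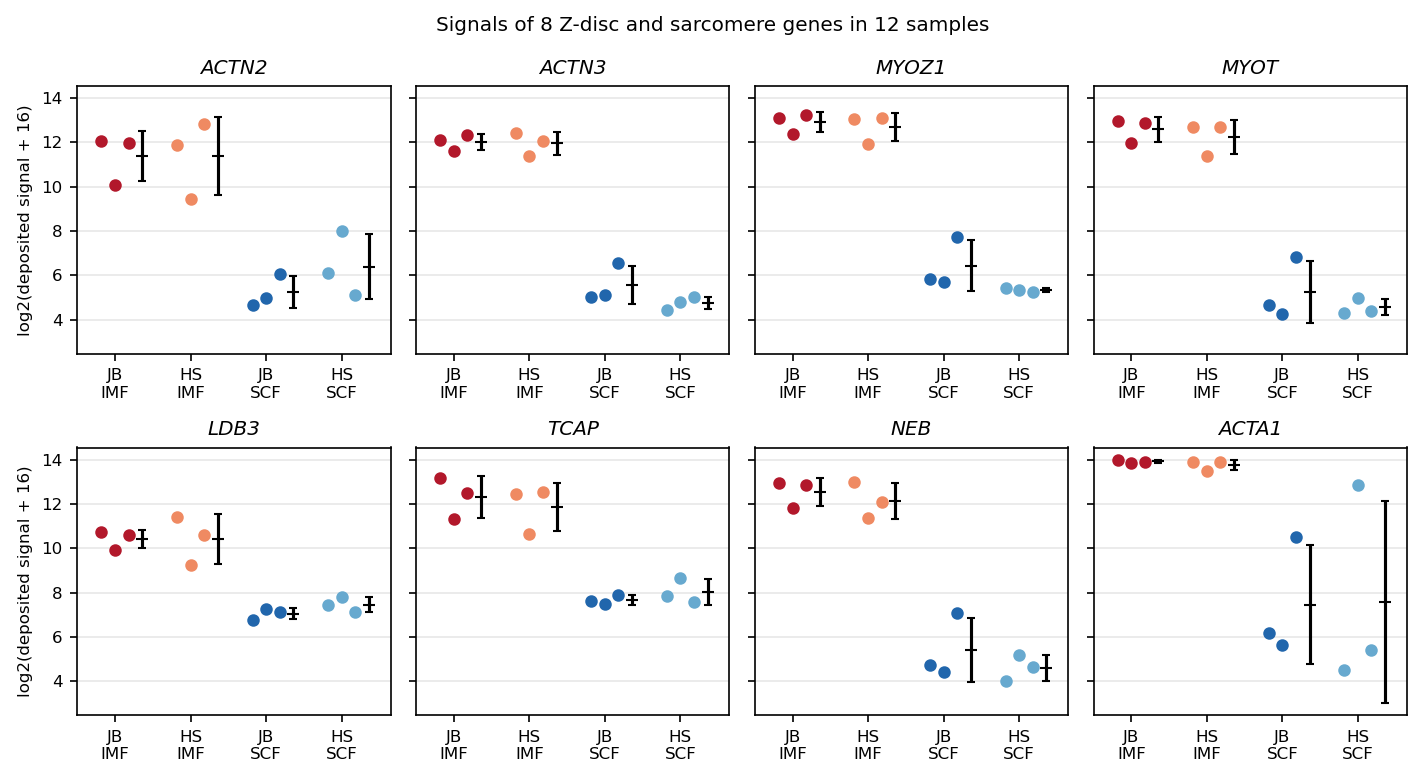
Deposited signals of 8 genes on a scale of log2(signal + 16) in the 4 groups, with 1 point per sample in the order of the sample numbers and the group mean ± SD (n = 3) in black. Every IMF point lies above every SCF point of the same gene, and ACTA1 shows 2 bright SCF samples, JB SCF 6 at 1462 and HS SCF 5 at 7292.

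ACTN2 encodes the alpha-actinin that crosslinks thin filaments at the Z-disc of all skeletal and cardiac fibres. Its deposited signal was 4257, 1082 and 4052 in JB IMF and 3729, 679 and 7393 in HS IMF, against 9.41, 15.3 and 50.1 in JB SCF and 52.15, 239 and 18.5 in HS SCF. Sample 2 of each breed was the dimmest in IMF, and HS SCF 5 stood out in SCF. IMF exceeded SCF by 5.63 ± 0.63 (SE) on the log2 scale, 49.7-fold, over both breeds (adjusted p = 0.000146). The difference was 6.11 ± 0.89 in JB (adjusted p = 0.00224) and 5.16 ± 0.89 in HS (adjusted p = 0.00852). The HS call was lost without HS SCF 6, at 4.51 and adjusted p = 0.0508. The HS difference was 6.16 without HS IMF 2, 4.44 without HS IMF 3 and 5.94 without HS SCF 5, and that in JB was 6.75 without JB IMF 2. These 4 passed, with adjusted p from 0.00102 to 0.0435.

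ACTN3 encodes the alpha-actinin of fast fibres. It gave 4424, 3097 and 5156 in JB IMF and 5415, 2687 and 4311 in HS IMF, against 16.5, 18.8 and 77.0 in JB SCF and 5.72, 12.1 and 16.1 in HS SCF. The IMF samples lay close together for this gene, and JB SCF 6 was well above the other SCF samples. The IMF excess was 6.89 ± 0.29 (SE), 119-fold, over both breeds (adjusted p = 6.05e-08), the smallest standard error among the members. It was 6.40 ± 0.40 in JB (adjusted p = 6.58e-06) and 7.38 ± 0.40 in HS (adjusted p = 1.59e-06).

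The adaptor proteins that bind alpha-actinin showed the widest range of depot differences. MYOZ1 encodes calsarcin-2, which tethers the phosphatase calcineurin to the Z-disc of fast fibres. Its signal was 8913, 5402 and 9574 in JB IMF and 8392, 3938 and 8671 in HS IMF, against 41.1, 36.7 and 199 in JB SCF and 27.1, 24.3 and 22.4 in HS SCF. Sample 2 of each breed was again low in IMF, and JB SCF 6 was far above the other SCF samples. IMF exceeded SCF by 6.95 ± 0.33 (SE), 124-fold (adjusted p = 1.52e-07).

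MYOT encodes myotilin, an actin-bundling partner of alpha-actinin that is mutated in a form of myofibrillar myopathy in humans. It gave 7998, 3958 and 7485 in JB IMF and 6538, 2630.3 and 6584 in HS IMF, against 8.97, 3.26 and 98.9 in JB SCF and 3.95, 15.35 and 5.19 in HS SCF. In SCF 5 of 6 samples fell under 16, the constant added before taking logarithms, and JB SCF 6 was the exception. MYOT had the largest difference of the 9 tested probe sets over all 12 samples, 7.55 ± 0.42 (SE), 187-fold (adjusted p = 3.79e-07), while the 5' control probe set of ACTA1 (7.62) and, without HS SCF 5, ACTA1 itself (7.72) exceeded it. With 1 added in place of 16 the difference was 8.97 (adjusted p = 1.21e-05), since the added constant understates the change of genes that are dim on one side.

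LDB3, also called ZASP or Cypher, encodes a PDZ and LIM domain protein that binds alpha-actinin. It gave 1678, 963 and 1525 in JB IMF and 2740.4, 581 and 1531 in HS IMF, against 93.6, 135 and 122 in JB SCF and 156, 207 and 125 in HS SCF. No SCF sample stood apart for LDB3, and SCF signals stayed well above the constant in all 6. LDB3 had the smallest depot difference of the members, 3.30 ± 0.33 (SE), 9.86-fold (adjusted p = 6.20e-05).

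TCAP encodes telethonin, which caps the ends of paired titin molecules at the Z-disc. Its brighter probe set gave 9084, 2517 and 5766 in JB IMF and 5542, 1572 and 5949.6 in HS IMF, against 183, 162 and 222 in JB SCF and 212, 393 and 176 in HS SCF. IMF values spread widely, with sample 2 of each breed lowest, while SCF values were close together apart from HS SCF 5. The IMF excess was 4.36 ± 0.38 (SE), 20.5-fold (adjusted p = 1.97e-05). A second TCAP probe set differed by 5.03 ± 0.43 in the same direction (adjusted p = 1.76e-05), with SCF signals of 46.03 to 80.7 and HS SCF 5 inside that range at 71.7.

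NEB encodes nebulin, the giant ruler protein of the thin filament. Its bright probe set gave 7892, 3593 and 7360 in JB IMF and 8184, 2659 and 4277 in HS IMF, against 10.5, 5.29 and 119.8 in JB SCF and 0.01, 20.05 and 8.99 in HS SCF. JB SCF 6 was the one SCF sample with a clear signal, and 4 of the 6 SCF samples fell under 16. The difference was 7.36 ± 0.44 (SE), 165-fold (adjusted p = 8.14e-07), and 8.84 with 1 added. The NEB probe sets did not act alike. One of the dim ones ranged from 17.04 to 227 over IMF samples and up to 11.5 over SCF samples, and differed by 2.57 ± 0.43 when dim probe sets were kept (adjusted p = 0.00338). The other ranged from 10.7 to 21.6 over IMF samples and from 5.17 to 17.2 over SCF samples, a difference of 0.30 ± 0.17 (adjusted p = 0.302).

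ACTA1 encodes skeletal muscle alpha-actin, the thin filament protein itself. Its probe set gave 16354, 14944 and 15221 in JB IMF and 15114, 11382 and 15380.2 in HS IMF, against 57.2, 33.8 and 1462 in JB SCF and 6.95, 7292 and 26.3 in HS SCF. In IMF it was among the brightest probe sets of each array, with at most 0.0666% of probe sets brighter. In SCF it spread from 6.95 to 7292, and HS SCF 5 and JB SCF 6 were far above the other 4 samples.

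Over both breeds ACTA1 was 6.39 ± 1.26 (SE) higher in IMF, 84.1-fold (adjusted p = 0.00742). Within a breed it did not pass, with a difference of 6.55 ± 1.78 in JB (adjusted p = 0.0787) and 6.24 ± 1.78 in HS (adjusted p = 0.0809), although the depots did not overlap in either breed. Of all tested probe sets, 14.1% had every IMF sample above every SCF sample in JB and 7.79% in HS. Without HS SCF 5 the difference was 7.72 over both breeds (adjusted p = 6.86e-05) and 8.89 in HS (adjusted p = 0.00132), while in JB it stayed at 6.55 and its adjusted p was 0.00323. Other single samples moved it too. In HS it was 4.70 without HS SCF 4 (adjusted p = 0.161) and 5.11 without HS SCF 6 (adjusted p = 0.265). In JB it was 5.93 without JB SCF 4 (adjusted p = 0.221), 5.67 without JB SCF 5 (adjusted p = 0.303) and 8.08 without JB SCF 6 (adjusted p = 0.0561). Over both breeds it was 5.62 without HS SCF 4 (adjusted p = 0.0143) and 7.16 without JB SCF 6 (adjusted p = 0.00545). Without both HS SCF 5 and JB SCF 6, a setting chosen after the data were seen, it was 8.48 over both breeds (adjusted p = 1.67e-08).

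The other 7 genes passed within each breed, so that 8 of 9 tested probe sets passed in JB and 8 of 9 in HS. Of all tested probe sets, 3.07% passed in either direction in JB and 2.15% as higher, and 3.32% passed in HS and 1.8% as higher. MYOZ1 differed between depots by 6.44 ± 0.47 (SE) in JB and 7.46 ± 0.47 in HS, and MYOT by 7.30 ± 0.59 in JB and 7.79 ± 0.59 in HS. NEB differed by 7.05 ± 0.63 in JB and 7.67 ± 0.63 in HS. LDB3 differed by 3.36 ± 0.47 in JB and 3.24 ± 0.47 in HS, and TCAP by 4.68 ± 0.54 in JB and 4.03 ± 0.54 in HS. Among these 5 genes the largest adjusted p by limma was that of LDB3 in HS, 0.00257. Without JB SCF 6 the JB difference was 7.09 for MYOZ1, 8.08 for MYOT and 7.87 for NEB, and without HS IMF 2 the HS difference was 3.91 for LDB3 and 4.69 for TCAP. All 5 passed in those settings. The members' median difference was 6.42 in JB and 6.81 in HS. The difference between the breeds' depot differences, tested as an interaction in limma, passed for 0 of 9 probe sets, with 0 also at an unadjusted p under 0.05 and 0% called over all probe sets. The interaction ranged from −1.01 for MYOZ1 to 0.94 for ACTN2, with standard errors of 0.57 to 2.52. Its 95% interval ran from −2.22 to 0.27 for ACTN3 and from −5.17 to 5.81 for ACTA1.

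**Figure D2:**
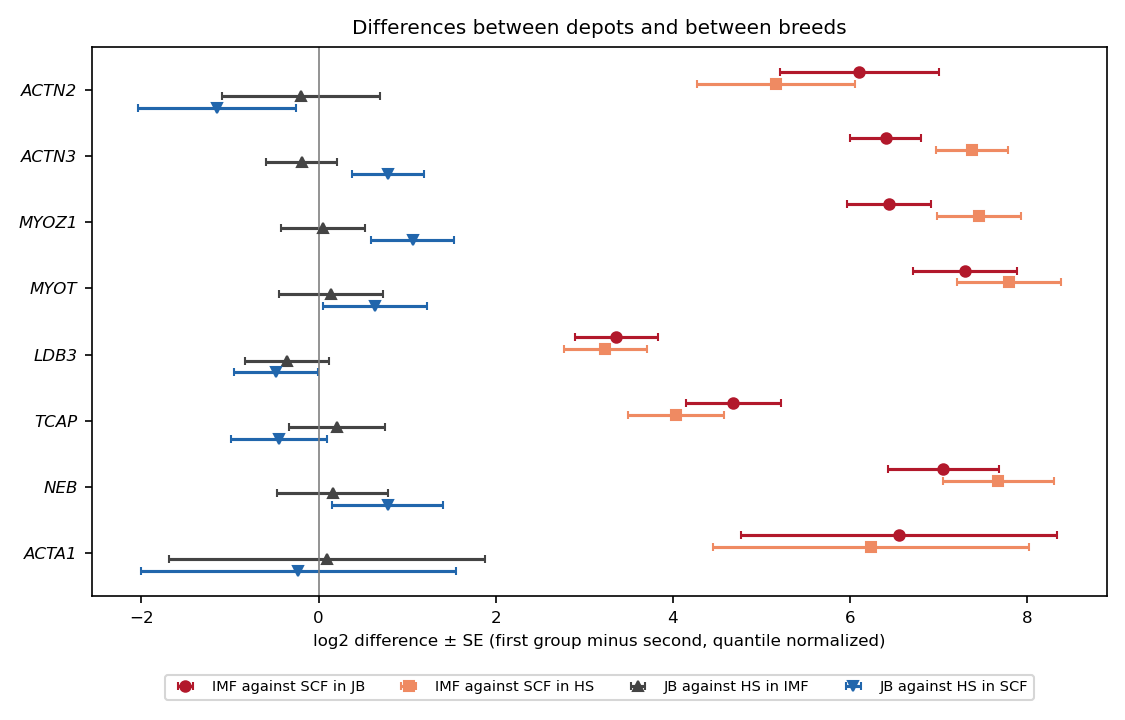
Log2 differences of 8 genes, first-named group minus second, with bars for the SE of the limma fit over 12 samples. The depot differences lie between 3.24 and 7.79, and the breed differences lie between −1.14 and 1.06.

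The manufacturer's control probe sets for actin, which the platform annotation also names ACTA1, are labelled for the 3' end, middle and 5' end of the transcript. Whether they also read other actins could not be checked. The 5' probe set gave 7458, 4569.96 and 4132 in JB IMF and 4450.4, 2484 and 8024 in HS IMF, against 2.55, 6.19 and 58.3 in JB SCF and 7.08, 5.52 and 1.51 in HS SCF. Here HS SCF 5 did not stand out, and JB SCF 6 was the single bright SCF sample. When these control probe sets were kept in the test, the 5' one differed between depots by 7.62 ± 0.36 (SE), with adjusted p = 1.40e-07 over both breeds, 1.10e-05 in JB and 5.60e-06 in HS.

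The middle control gave 7014.3 to 14701 over the IMF samples and 12.4 to 860 over the SCF samples, with HS SCF 5 the highest of these, a difference of 6.94 ± 0.76 (adjusted p = 0.000123). The 3' control gave 11325 to 13361 in IMF, against 117, 28.7 and 2168 in JB SCF and 934, 108 and 23.4 in HS SCF, and its difference was 6.01 ± 0.89 (adjusted p = 0.00124). The 4 ACTA1 probe sets thus ranked the SCF samples differently, with the brightest being HS SCF 5 in 2 of them and JB SCF 6 in the other 2. The signal ratio of the 3' to the middle control was 0.795 to 1.61 over the 6 IMF samples, and in SCF it reached 26.6 in HS SCF 4 and stood at 0.126 in HS SCF 5. For the GAPDH control the 3' to 5' ratio, a measure of RNA integrity, stood at 4.06 for HS SCF 5 and between 1.19 and 2.40 for all other samples. The part of RNA quality in the ACTA1 signals was not tested.

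**Figure D3:**
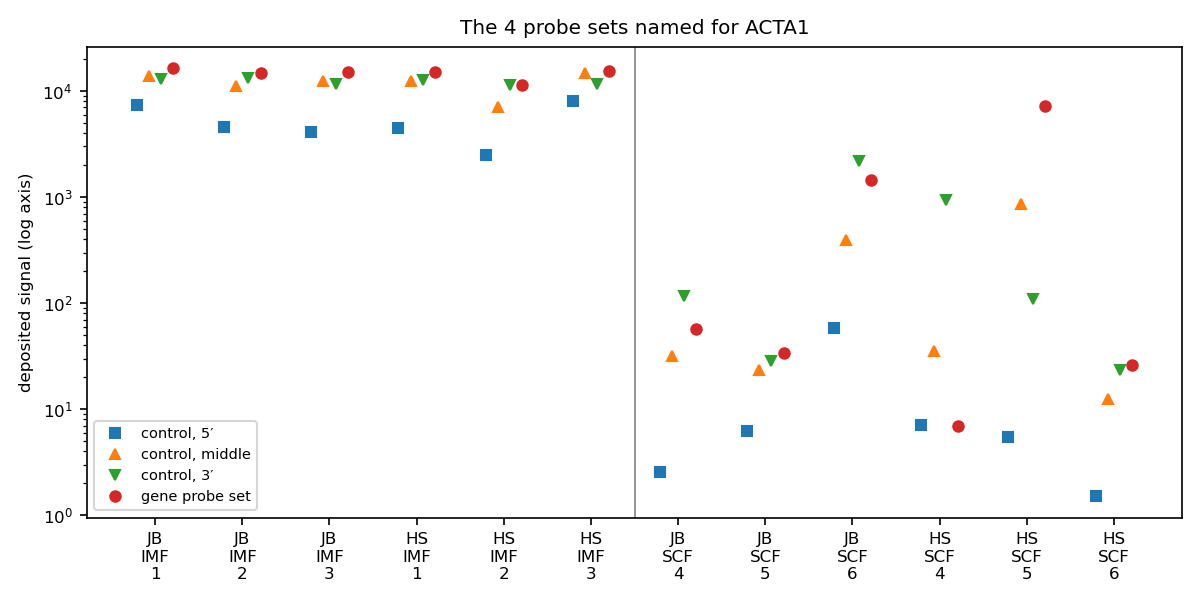
Deposited signal, on a log axis, of the 4 probe sets named ACTA1 in 12 samples, IMF left and SCF right of the line. The IMF samples lie between 2484 and 16354 in every probe set, and in SCF the gene probe set reached 7292 in HS SCF 5 while the 5′ control was at 5.52 there.

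Between breeds, none of the members was called in either depot. In IMF, 0 of 9 probe sets passed by limma, with 0 at an unadjusted p under 0.05, where 0.0238% of all tested probe sets passed. The JB and HS samples overlapped for all 9. JB minus HS was −0.20 ± 0.89 (SE) for ACTN2, −0.19 ± 0.40 for ACTN3, 0.05 ± 0.47 for MYOZ1 and 0.14 ± 0.59 for MYOT. It was −0.36 ± 0.47 for LDB3, 0.21 ± 0.54 for TCAP, 0.16 ± 0.63 for NEB and 0.09 ± 1.78 for ACTA1, with adjusted p from 0.776 to 0.986 over the 9. The median was 0.07, against 0.10 over all tested probe sets.

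The intervals show how far the breeds could differ in IMF. The narrowest 95% interval was that of ACTN3, from −1.07 to 0.69, and MYOZ1 ran from −0.98 to 1.08. ACTN2 ran from −2.14 to 1.74. For ACTA1 the shared spread estimate of the fit gave −3.79 to 3.97, although its 6 IMF samples had an SD of 0.126 on the normalized log2 scale and its 6 SCF samples one of 3.37.

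In SCF, 0 of 9 probe sets passed between breeds, where 0.00595% of all tested probe sets passed. At an unadjusted p under 0.05 there was 1, that of MYOZ1, with JB minus HS at 1.06 ± 0.47 (SE; adjusted p = 0.9997 by limma). Its JB SCF samples all lay above its HS SCF samples, and so did those of ACTN3 on the normalized scale, with 0.78 ± 0.40. Over all tested probe sets, 5.81% separated in this way. Without JB SCF 6 the differences were 0.42 for MYOZ1 and 0.31 for ACTN3. The remaining differences ran from −1.14 ± 0.89 for ACTN2 to 0.78 ± 0.63 for NEB.

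The order of the 4 groups was therefore the same for each gene at the level of depots, with JB IMF and HS IMF above JB SCF and HS SCF, and within a depot no gene differed past the threshold between the breeds. ACTN3, for instance, averaged 11.94 ± 0.36 in JB IMF, 12.13 ± 0.57 in HS IMF, 5.54 ± 0.82 in JB SCF and 4.75 ± 0.22 in HS SCF on the normalized log2 scale (SD, n = 3 each).

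Within IMF, HS IMF 2 had the lowest signal for 8 of 8 genes. In deposited signals JB IMF 2 was the lowest JB sample for all 8 genes, although after normalization ACTA1 was lowest in JB IMF 3. The JB IMF 2 signal as a percentage of the mean of JB IMF 1 and 3 ranged from 26.0% for ACTN2 to 94.7% for ACTA1. In HS IMF 2 the same percentage ranged from 12.2% for ACTN2 to 74.7% for ACTA1. The median of the 8 genes was 54.8% in JB IMF 2 and 41.4% in HS IMF 2, and that of the 24 fibre marker genes was 68.8% and 48.3% in the same samples. These 24 include MYH7, MYL11, TPM1, TPM3 and CKM, which overlapped between depots. Those genes stood at 55.9% to 106% in JB IMF 2. In HS IMF 2 they stood at 74.6% to 152%, all above the marker median. The medians of members and markers are therefore not a like comparison. The adipocyte sum was highest of the IMF samples in JB IMF 2, at 64794, and highest of the HS IMF samples in HS IMF 2, at 47207.8. How far the amount of fibre in a sample sets these levels was not tested.

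The size of the drop in sample 2 differed between genes. TCAP stood at 33.9% in JB IMF 2 and 27.4% in HS IMF 2, and LDB3 at 60.1% and 27.2%. NEB stood at 47.1% and 42.7%, MYOT at 51.1% and 40.1%, MYOZ1 at 58.4% and 46.2%, and ACTN3 at 64.7% and 55.2% in the same 2 samples. The 2 alpha-actinins thus lay apart, with ACTN2 furthest down and ACTN3 among the least reduced. Over the 6 IMF samples the highest signal was 10.9 times the lowest for ACTN2, 5.78 times for TCAP and 4.71 times for LDB3. The ratio was 3.08 for NEB, 3.04 for MYOT, 2.43 for MYOZ1, 2.02 for ACTN3 and 1.44 for ACTA1. As given above, ACTA1 ranked among the brightest probe sets of every IMF array, and the part of signal saturation in its narrow spread was not tested.

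The highest IMF sample was not the same for every gene. JB IMF 1 was highest for MYOT, TCAP and ACTA1, HS IMF 1 for ACTN3, LDB3 and NEB, JB IMF 3 for MYOZ1, and HS IMF 3 for ACTN2. HS IMF 3 had the lowest array median, 58.8 against 77.6 to 88.3 in the other samples, and it correlated least with the other samples of its group (mean r = 0.805).

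**Figure D4:**
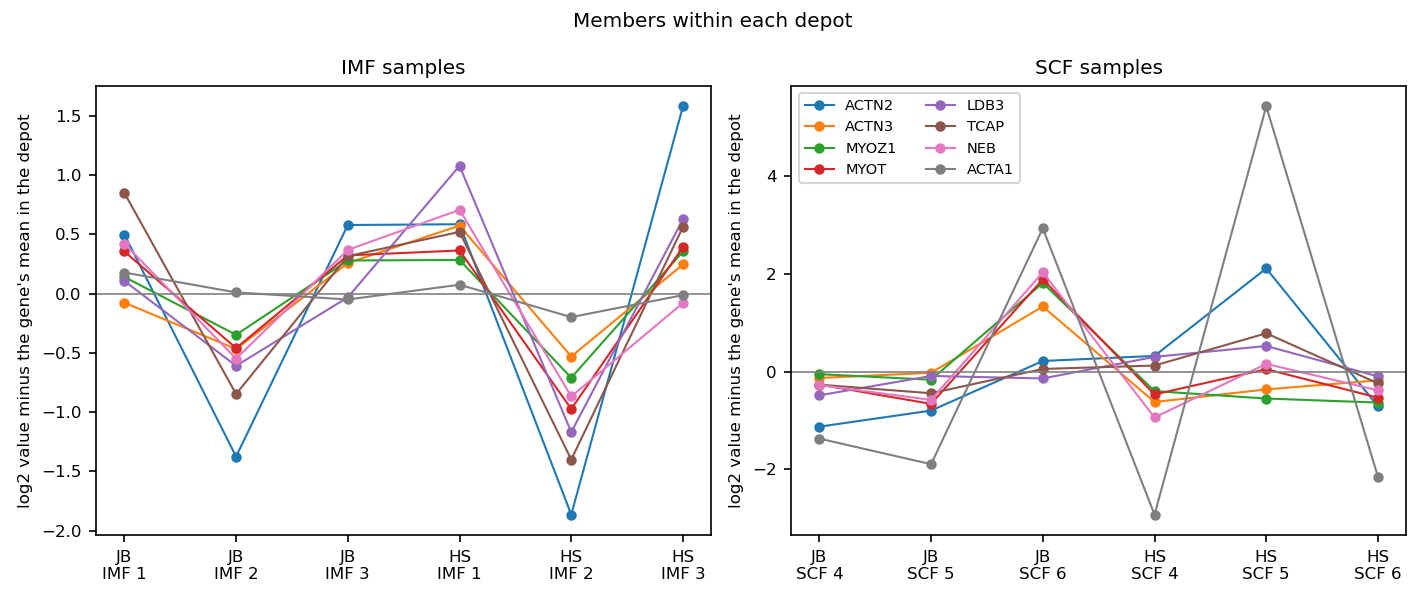
Quantile normalized log2 values of 8 genes, each minus the gene's mean over the 6 samples of the depot, for IMF on the left and SCF on the right, with lines joining the points of a gene. In IMF every gene is lowest in HS IMF 2, and in SCF 4 genes are highest in JB SCF 6 and the other 4 in HS SCF 5, with LDB3 highest there by a small margin.

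Through their brightest probe sets, ACTN3, MYOZ1, MYOT and NEB were highest in JB SCF 6, and ACTN2, LDB3, TCAP and ACTA1 were highest in HS SCF 5. The second TCAP probe set was highest in JB SCF 4, at 80.7, and LDB3 in HS SCF 5, at 207, was little above the 156 of HS SCF 4. In JB SCF 6 the 8 genes reached 1.42% to 9.92% of their mean IMF signal, with a median of 2.39%. In HS SCF 5 they were far more uneven. ACTA1 reached 49.5% of its IMF mean there, LDB3 13.8%, TCAP 7.74% and ACTN2 6.78%. NEB, MYOZ1, ACTN3 and MYOT reached 0.354%, 0.324%, 0.290% and 0.262% in the same sample.

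The fibre markers were uneven in HS SCF 5 as well. Of the 24, 13 were highest of the SCF samples in JB SCF 6 and 6 in HS SCF 5. In HS SCF 5 the fast fibre genes MYH1, TNNI2 and TNNC2 gave 3554, 3035 and 6334, and TNNC1, the troponin C of slow and cardiac fibres, gave 1272. In the same sample MYL2, a slow fibre myosin light chain, gave 0.02, MB, myoglobin, 46.97, and the fast fibre genes TNNT3 and ATP2A1 gave 56.8 and 5.93. Genes of fast and of slow fibres thus stood among both the bright and the dim ones there, and those given were named after their values were seen. HS SCF 5 was also the sample with the GAPDH ratio of 4.06, and the part of RNA quality in this pattern was not tested.

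Most other genes of the Z-disc and the sarcomere scaffold were also higher in IMF. Of 40 listed genes 21 had a probe set and 20 were tested. Between depots 17 of the 20 were higher in IMF, 0 were lower and 3 did not pass by limma, with a median difference of 3.36. Those with the smallest p were MYPN, the Z-disc protein myopalladin, at 6.19 ± 0.20 (SE, adjusted p = 6.72e-09), and TMOD4, a capping protein of thin filament ends, at 5.83 ± 0.33 (adjusted p = 3.95e-07). KLHL41, a kelch protein that stabilizes nebulin, followed at 6.66 ± 0.44 (adjusted p = 1.83e-06), and MYOZ2, the calsarcin of slow and cardiac fibres, at 6.68 ± 0.50 (adjusted p = 5.05e-06). MYPN gave 896 to 2509.5 in IMF and 0.03 to 11.4 in SCF.

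The 3 that did not pass were named after their values were seen. They were the capping protein subunits CAPZA2 (0.32, adjusted p = 0.25) and CAPZB (−0.28, adjusted p = 0.554), which most cell types make, and NEBL, a nebulin relative known from heart muscle (0.04, adjusted p = 0.946). Within breeds 14 of the 20 were higher in IMF in JB and 15 in HS.

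Paralogs of the members gave a mixed picture. The list mixes cytoskeletal, smooth muscle and cardiac genes with the calsarcins MYOZ2 and MYOZ3 of skeletal fibres. Of 13 listed, 12 were tested, and 6 were higher in IMF, 0 lower and 6 did not pass between depots, with a median of 0.87. Of these 12, 4 also stand in the scaffold list. The smallest p were those of MYOZ2, given above, of ACTA2, smooth muscle actin, at 2.91 ± 0.29 (adjusted p = 5.11e-05), of MYOZ3, another calsarcin of fast fibres, at 3.60 ± 0.37 (adjusted p = 7.76e-05), and of ACTC1, cardiac alpha-actin, at 4.90 ± 0.84 (adjusted p = 0.00346). Smooth muscle and pericyte genes moved in the same direction over both breeds, with 8 of 9 higher in IMF by limma. By breed, 9 of 9 were higher in JB and 6 of 9 in HS. Their summed signal was 41590.7 to 82252.6 in JB IMF and 18230.1 to 42497.4 in HS IMF. In SCF it was 6053.72 to 10432 in JB and 4952.67 to 8289.88 in HS. RGS5, a pericyte gene, did not pass over both breeds, and its difference in HS was −0.19 ± 0.85 (SE). It gave 2509.36, 88.63 and 242.44 in HS IMF, against 515.22, 665.18 and 606.31 in HS SCF. DES, with the smallest p of this list, also stands in the scaffold list.

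The cytoskeletal counterparts of ACTN2, ACTN3 and ACTA1 are given for their kinship and were also chosen after their values were seen. ACTN1 was 1.099 ± 0.30 higher in IMF (adjusted p = 0.035), and ACTN4 differed by 0.31 ± 0.21 (adjusted p = 0.362). ACTB and ACTG1, the actins of nearly every cell, differed by 0.05 ± 0.18 (adjusted p = 0.894) and −0.09 ± 0.16 (adjusted p = 0.765). ACTB gave 8023.9 to 15262 in IMF and 7945.8 to 12884 in SCF.

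**Figure D5:**
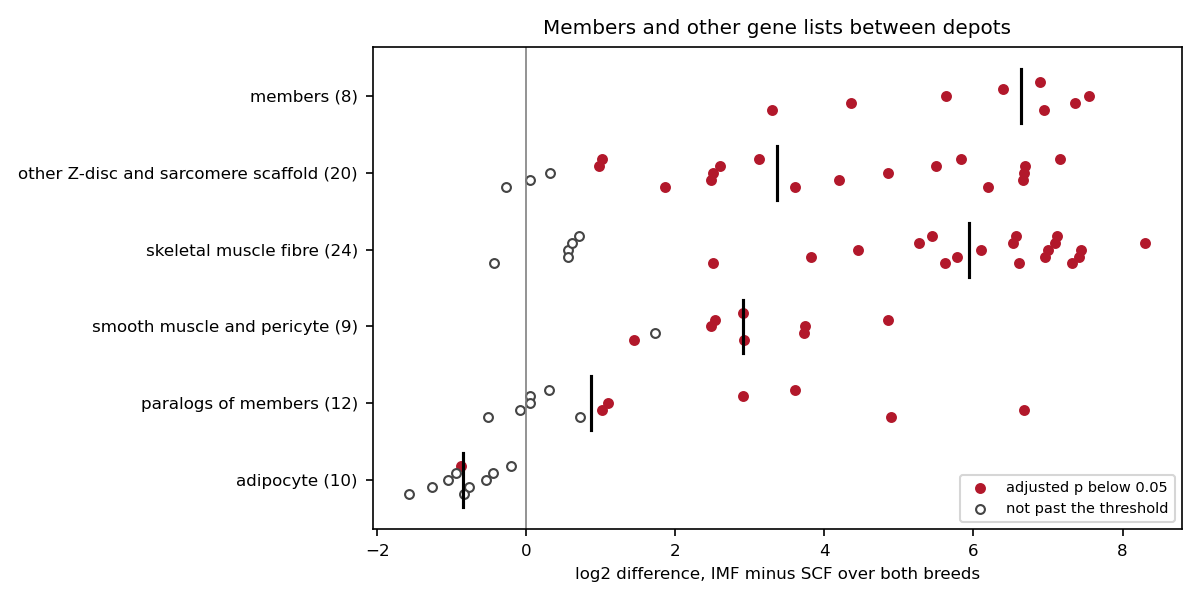
Log2 difference of IMF minus SCF over both breeds for the tested genes of 6 lists, 1 point per gene through its brightest probe set, with the number of genes in parentheses and the list median as a vertical bar. The 8 members lie between 3.30 and 7.55, and the 10 adipocyte genes lie below 0 with 1 past the threshold.

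The genes most like the members over all 12 samples were found by the root mean square difference between centred log2 profiles, among 10193 tested probe sets of other named genes. The closest were CKMT2, the mitochondrial creatine kinase of striated muscle, at 0.37, PPP1R27, a phosphatase regulatory subunit, at 0.45, and TMOD4 at 0.46. PGAM2 and ENO3, the muscle forms of 2 glycolytic enzymes, followed at 0.48 and 0.55, where the median over all was 3.18. CKMT2 gave 991 to 5018 in IMF and 2.35 to 93.0 in SCF. Among the members, LDB3 at 1.49 and ACTA1 at 1.70 lay farthest from the members' own mean profile. Over 12 samples this measure is dominated by the difference between depots.

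Over the 6 IMF samples alone the closest were CAND2, GPKOW, ADSS1, WIPI1 and BIN1, at 0.12 to 0.16, where the median was 0.68. CAND2 is a muscle-enriched regulator of cullin ubiquitin ligases, ADSS1 is the muscle form of adenylosuccinate synthase, and BIN1 is a membrane-bending protein of the T-tubules. GPKOW ranged from 44.6 to 123 over IMF samples and from 57.5 to 99.6 over SCF samples. MYOT lay nearest to the members' mean profile in IMF, at 0.092, and ACTN2 farthest, at 0.69.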

How the data were processed

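The deposited values are linear intensity values of 24128 probe sets in 12 samples, made with GCOS 1.1.1 and Affymetrix Expression Console 1.1 per the submitters' processing notes. How probes were summarized and arrays scaled is not stated in those notes. Detection calls were not used here.

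Signals were turned into log2(signal + 16) and quantile normalized. The 112 control probe sets and the dimmest 30% of the others were left out, leaving 16811. Of the others, 13292 carried 1 symbol, 86 several and 10638 none, per the platform annotation. Members were matched on the annotated symbol, and list genes through the Entrez identifier, matched for 13283 of 13318. The brightest probe set stood for a gene.

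In R 4.3.3, limma 3.58.1 fitted 4 group means by lmFit and moderated the variance by eBayes, on 8 residual degrees of freedom and 4.05 from the prior, with Benjamini-Hochberg adjustment over all tested probe sets of a comparison, threshold 0.05. The spread was shared over all 12 samples. Tables were read with jsonlite 2.0.0 and pandas, and figures drawn with matplotlib in Python. The procedure was also run on simulated data with independent normal noise. That simulation held no aberrant samples, so it does not speak to results that rest on single samples. The number of arrays, 3 a group, limits the precision.

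All members are named. Up to 4 genes of each other list are named by smallest depot p, and the 5 genes most like the members by profile. FABP4, RGS5, TNNT1, the fibre genes that overlapped between depots and most of those given for HS SCF 5 also lie outside this rule. Members and lists were chosen with earlier results of these data known, and some lists overlap. Alternatives were other filters, normalizations, constants, variance models and array weights, only the compared groups, 1 probe set per gene, a replicate block and each sample left out. Leaving out JB SCF 6 with HS SCF 5, and keeping the ACTA1 controls, were chosen after seeing the data. No sequence was used.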

Additional observations from a re-analysis of the deposited data

Results flagged for a closer look

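Dixon's test was run on normalized log2 values in 24 sets of 6 samples, the 12 bright member probe sets in each depot. A sample lay far from the others in 5 sets, where chance gives about 1 in 20 if sets are independent. These sets share arrays and some share a gene, so 5 of 24 cannot be set against that share. All 5 were JB SCF 6 among the SCF samples, and their values are given here as deposited signals. MYOZ1 had a signal of 199.25 there, against 22.4 to 41.1 in the other 5. NEB had 119.81 against 0.01 to 20.05. MYOT had 98.92 against 3.26 to 15.35, and ACTN3 had 76.97 against 5.72 to 18.76. The 5′ control probe set of ACTA1 had 58.25 against 1.51 to 7.08. The same test on deposited signals, added after the data were seen, marked 9 of the 24 sets. They were these 5, HS SCF 5 among the SCF samples for ACTN2, TCAP (brighter probe set) and ACTA1, and HS IMF 2 as the lowest IMF sample for ACTA1. Of the 24 skeletal muscle fibre markers, 13 were also highest of the SCF samples in JB SCF 6, and their part in these values was not tested.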

How the results depend on the processing

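The depot calls of the members held under every alternative run over both breeds, with 8 to 12 probe sets past the threshold in 22 settings, 9 each time a sample was left out, and 8 of 8 with 1 probe set per gene. Within JB the count was 7 to 11 and within HS 7 to 11 over 23 settings, and 8 to 9 and 7 to 9 with a sample left out. ACTN2 in HS did not pass with array weights (4.19, adjusted p = 0.0966), with only the compared groups (5.16, adjusted p = 0.056) or without HS SCF 6 (4.51, adjusted p = 0.0508). ACTA1 passed in JB in 4 of 23 settings and in HS in 2, with adjusted p between 8.87e-07 and 0.303 for JB and between 3.39e-07 and 0.445 for HS. Between breeds 0 passed in any setting. The replicate block also gave 0 for breed in IMF, breed in SCF and the interaction. Same-numbered JB and HS samples correlated at 0.088, 0.117 and −0.040 in IMF and −0.157, −0.012 and −0.278 in SCF. Number 2 in IMF had its same-numbered sample as best match. The numbers thus gave no clear pairing across breeds. IMF and SCF share no numbers, so a pairing of depots by animal could not be checked. Breed differences that did not pass changed sign in 25 cases, and the cause was not tested. In IMF these were ACTN3 (0.057) and LDB3 (0.0017) as deposited, ACTA1 (−0.038) when arrays were centred on their medians, and ACTN2 (0.79) and LDB3 (0.061) with array weights. With a sample left out, the IMF differences ranged from −1.19 to 0.53 for ACTN2, −0.51 to 0.047 for ACTN3, −0.30 to 0.24 for MYOZ1, −0.31 to 0.41 for MYOT, −1.03 to 0.093 for LDB3, −0.44 to 0.69 for TCAP and −0.24 to 0.55 for NEB. In SCF they ranged from −1.76 to 2.43 for ACTA1, −0.15 to 1.13 for MYOT and −0.040 to 1.26 for NEB. ACTA1 in SCF was at 0.17 with 1 added and at 0.91 without JB SCF 6 and HS SCF 5. Without quantile normalization the median of all probe sets moved by 0.28 between breeds in IMF and by −0.13 between depots. SCF signals near 0 limit how well differences there can be measured.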

Other observations

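HS IMF 3 stood apart in several muscle genes outside the members. ACTC1, cardiac alpha-actin, gave 18561.7 there, against 120.09 to 6712.34 in the other 5 IMF samples. MYOD1 and MYOG, transcription factors of muscle precursors, gave 303.44 and 480.78 there, and CAPN3, a protease of the sarcomere, gave 385.79 against 15.9 to 30.13 in the other IMF samples. The rest of the satellite cell and myoblast list was mixed. MYF6, DLK1 and CHRNA1 gave 1094.96, 212.61 and 83.56 in HS IMF 3, below their IMF maxima of 1581.67, 540.26 and 204.36. MYF5 was highest of the IMF samples in HS IMF 3, at 24.92. ACTN2 was also highest in that sample, at 7392.96. Of other cardiac genes, MYL4, the atrial and embryonic myosin light chain, gave 546.67 in it, while TNNI3 and TNNT2 gave 35.78 and 37.37. These genes were picked after their values were seen. Their values are deposited signals without normalization, and MYOD1, MYF5, CAPN3, TNNI3 and TNNT2 were too dim for the test. HS IMF 3 had the lowest array median, as given above. Its maximum signal was 152036, against 17138 to 21870 in the other 5 IMF samples and 222742 in HS SCF 6.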
